A study of Mus musculus with 380 samples.

Results

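CD4 and CD8 T cells taken from B16F10 tumours of mice labelled as knockout for Il27ra were compared across all genes. B16F10 is a transplantable mouse melanoma line grown in C57BL/6 mice, and Il27ra encodes a chain of the interleukin-27 receptor. The cells were chosen by plate: those of the CD4 plate and of the CD8 plate whose titles carry the code KO4, kept where at least 1000 genes exceeded an FPKM of 1. FPKM expresses a gene's level as sequenced fragments relative to transcript length and library size. This left 73 of 94 CD4 cells and 80 of 94 CD8 cells, together 50.3% of all cells kept in the series by the same rule. Each plate also held 1 population well, a library from many cells, and both wells served as a second view. The other plates, from mice labelled wild type (WT), gave 79 CD4 and 72 CD8 cells and are used only side by side, since the WT CD4 titles carry p2 where all others carry p1 and no label explains it. No treatment was named for any group, no age was given, and no label names an animal beyond the code. The submitters' protocol mentions isolation of CD8+ cells only, so the lineage rests on the titles.

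CD4 T cells recognise peptides on MHC class II molecules and include helper cells and regulatory T cells, which depend on the transcription factor Foxp3 and restrain other T cells. CD8 T cells recognise peptides on MHC class I molecules and kill target cells with perforin and granzymes. In tumours both lineages carry activation and co-inhibitory receptors, and regulatory T cells are often abundant among the CD4 cells.

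The kept CD4 cells expressed a median of 2218 genes and the kept CD8 cells 2507.5. The wells held 10853 and 10801 genes. The summed FPKM of a cell had a median of 715189 in CD4 and 770318 in CD8 cells; read depth is unknown. At least 10 of 30 cell cycle genes were detected in 6 CD4 cells (8.22%) and 9 CD8 cells (11.25%). No pair of libraries was identical (0 found). A gene was called detected in a cell above FPKM 1. The difference in cells is the mean of log2(FPKM + 1) over the CD4 cells minus that over the CD8 cells, so positive values are higher in CD4. This scale understates the change of low genes and joins the share of cells with a gene to its level in them. Each group is 1 plate and its cells are not replicates, so no test was possible and no p-value is given. A gene was called where the difference reached 1, and 2-fold throughout means a difference of 1 on this log2(FPKM + 1) scale. In cells it does not mean a 2-fold change in mean FPKM. Of genes called towards CD8, Anxa2 differed by less than 2-fold in mean FPKM, and Ly6c1 and Pgam1 were higher in CD4 by that measure. Intervals given after a share of cells are 95% Clopper-Pearson intervals (exact binomial) and reflect counting error alone. The upper limit given after a share of 0 is 3 cells of the number examined, which also covers counting error only and is lower than the upper end of the Clopper-Pearson interval.

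The lineage markers separated the plates. Cd4, the coreceptor for MHC class II, had a lowest, median and highest level of 0, 263.5 and 1376 FPKM in the CD4 cells, against 0, 0 and 0.68 FPKM in the CD8 cells. Detection reached 84.9% of CD4 cells (interval 74.6 to 92.2) and in 0 of 80 CD8 cells (upper limit 3.75%). The 62 CD4 cells with Cd4 thus lay above every CD8 cell, and the difference was 6.71. Cd8a, the CD8 alpha chain, ran from 0 through a median of 0 to 17.8 FPKM in CD4 cells and from 0 through 460.4 to 2068 FPKM in CD8 cells. Detection was 4.11% in CD4 cells (0.856 to 11.5) and 90% in CD8 cells (81.2 to 95.6), with a difference of -7.23, so the groups met only among low values. Cd8b1, the CD8 beta chain, had the largest difference in this direction of all genes compared, -7.66. It was above FPKM 1 in 28.8% of CD4 cells and 82.5% of CD8 cells, but above FPKM 10 in 1.37% and 82.5%. Most CD4 cells with Cd8b1 therefore held it at a trace level.

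A few cells lacked the coreceptor of their plate. Neither Cd4 nor Cd8a was detected in 11 CD4 and 8 CD8 cells, and both were detected in 3 CD4 cells and 0 CD8 cells. Any chain of the CD3 complex, which defines T cells, was found in 70 of 73 CD4 and 78 of 80 CD8 cells. In the wells Cd4 was at 679.6 FPKM in CD4 and 4.36 in CD8, and Cd8b1 at 27.8 and 1859.8. Cd8a was listed at 0 in the CD4 well and stood at 1055 FPKM in the CD8 well. In such wells fewer cells of a type and less RNA per cell cannot be told apart.

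**Figure D1:**
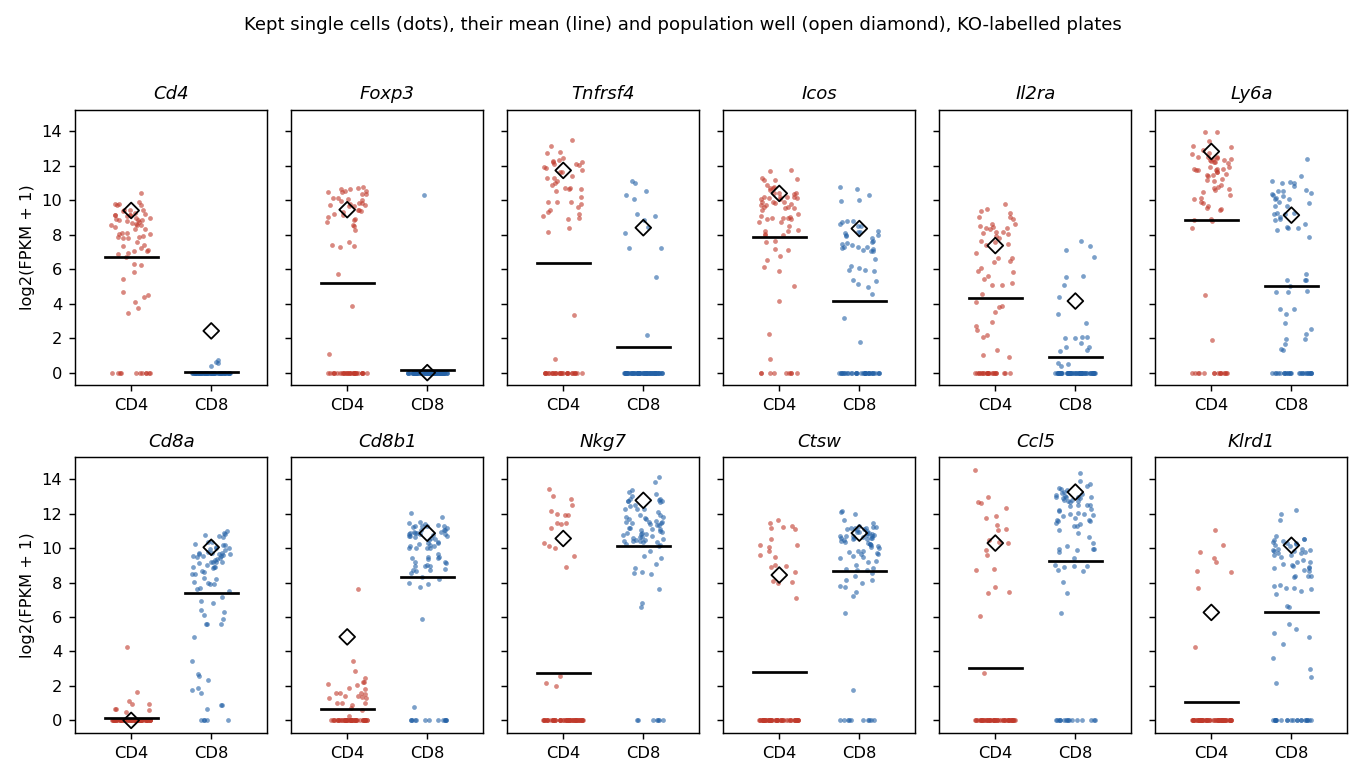
Level of 12 genes in the KO-labelled plates on a log2(FPKM + 1) axis, CD4 in red and CD8 in blue. Dots are kept cells (73 and 80), the black line is their mean and the open diamond is the population well. Cd4 and Foxp3 are near 0 in almost all CD8 cells, while Nkg7, Ctsw and Ccl5 reach high levels in a minority of CD4 cells.

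Across the transcriptome, 5286 genes were detected in at least 20% of the cells of 1 plate and were compared. Of these, 4.63% were at least 2-fold higher in CD4 cells and 11.1% at least 2-fold higher in CD8 cells. The median difference of all genes was -0.21, and CD8 cells also had more genes detected. The balance between the lineages moved with the cells used: with 54 cells a plate matched on genes detected, 572 genes were higher in CD4 and 415 in CD8, and the median was -0.004. CD4 genes made up 29.5% of the calls as measured, 57.95% in matched cells and 50.8% after centring on the median of all genes. Hence no weight is placed on which lineage had more genes. In the wells, 11857 genes were above FPKM 1 in either well, and 2193 (18.5%) were 2-fold higher in CD4 and 2143 (18.1%) in CD8. Cells and wells together called 2.31% of the compared genes higher in CD4 and 1.93% higher in CD8. Of the genes called in cells, 89.8% of the CD4 genes and 69.97% of the 586 CD8 genes had the same direction in the wells, where 51.4% and 48.3% of all compared genes lay in the CD4 and the CD8 direction.

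**Figure D2:**
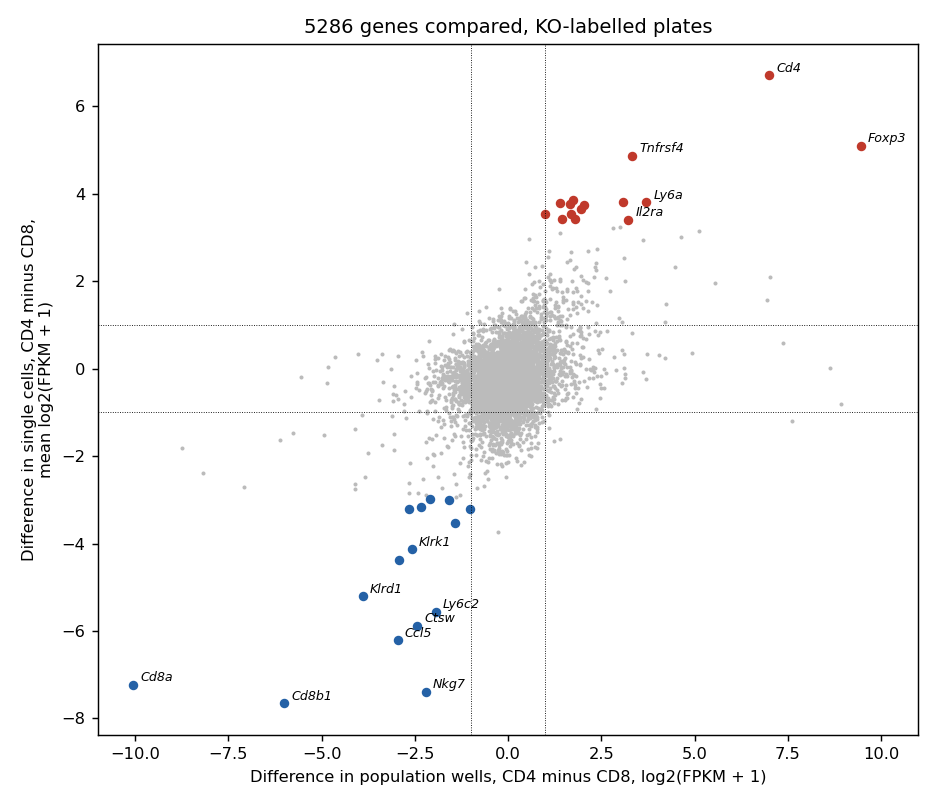
Difference between CD4 and CD8 for the 5286 compared genes, in single cells (vertical, mean log2(FPKM + 1)) against the population wells (horizontal, log2(FPKM + 1)). Positive values are higher in CD4; red and blue mark the 15 genes described in each direction, some of them named, and dotted lines mark a 2-fold difference. The coloured genes lie at the ends of a cloud centred near 0, and the horizontal place of a gene listed at 0 in a well depends on the pseudocount of 1.

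The 15 genes that stood highest in CD4 cells, among those also 2-fold higher in the CD4 well, included regulators and receptors of activated and regulatory T cells. After Cd4 came Foxp3, the transcription factor of regulatory T cells. It ran from 0 through a median of 170.1 to 1719 FPKM in CD4 cells, while 79 of 80 CD8 cells did not show it and the other 1 held 1276 FPKM. It was detected in 57.5% of CD4 cells (45.4 to 69.03) and 1.25% of CD8 cells (0.0316 to 6.77), a difference of 5.09, and the wells held 702 and 0 FPKM. Apart from that 1 CD8 cell, each CD4 cell with Foxp3 lay above the CD8 cells.

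Receptors of the TNF receptor family and the interleukin-2 receptor followed. Tnfrsf4, which encodes the co-stimulatory receptor OX40, had a median of 600.5 FPKM and a highest value of 11578 in CD4 cells, against 0 and 2226 in CD8 cells. Detection was 58.9% against 17.5%, the difference 4.87, and the wells held 3409 and 339.1 FPKM. Both plates had cells at 0 FPKM, so the ranges overlapped. Tnfrsf18, which encodes GITR and lies close to Tnfrsf4 on chromosome 4, differed by 3.66 and was detected in 84.9% and 57.5% of cells. Il2ra, the interleukin-2 receptor alpha chain, differed by 3.41 with detection in 67.1% and 23.8%. Its highest value was 866 FPKM in CD4 and 199.4 FPKM in CD8 cells. Icos, a co-stimulatory receptor of the CD28 family, differed by 3.75, and its medians were 536 and 37.2 FPKM.

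The remaining genes of this group served signalling, stress and migration. Ccr2, a receptor for monocyte-attracting chemokines, was detected in 69.9% of CD4 and 22.5% of CD8 cells (difference 3.78). In the cells that had it, the median level was nearly equal, at 366.7 and 371.5 FPKM, so the gene differed in how many cells held it. The mRNA-destabilising factor gene Zfp36 (3.85), the immediate-early gene Fos (3.41) and the stress gene Gadd45b (3.55) were higher in CD4, as was Cish, a feedback inhibitor of cytokine signalling (3.54). So were Glrx, a glutaredoxin (3.81), and Capg, an actin-capping protein (3.42). Ly6a, which encodes Sca-1, had medians of 2269 and 25.5 FPKM (3.81), and the interferon-induced gene Ifi27l2a medians of 538 and 0 FPKM (3.80). For all of these the ranges of the plates overlapped, since both had cells at 0 FPKM. The well differences of the 15 genes that were not listed at 0 in a well ran from 1.00 for Gadd45b to 6.99 for Cd4.

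The 15 genes at the CD8 end were dominated by killing and natural killer (NK) receptor genes. Nkg7, a cytotoxic granule membrane protein, ran from 0 through 2077 to 17579.8 FPKM in CD8 cells, and from 0 through 0 to 11175 FPKM in CD4 cells. It was detected in 91.25% of CD8 cells (82.8 to 96.4) and 27.4% of CD4 cells (17.6 to 39.1), a difference of -7.39, with 6988 and 1504 FPKM in the wells. CD4 cells that had Nkg7 held it at CD8 levels: the median among cells with the gene was 2737 FPKM in CD4 and 2280.5 in CD8. The chemokine gene Ccl5 was detected in 80% of CD8 and 30.1% of CD4 cells (-6.21), and Ctsw, which encodes the protease cathepsin W of killer cells, in 87.5% and 28.8% (-5.88). Unlike Nkg7, Ccl5 was lower in the CD4 cells that had it, with a median of 1362 FPKM against 4103 in CD8. Perforin, encoded by Prf1, was detected in 43.8% of CD8 cells (32.7 to 55.3) and 9.59% of CD4 cells (3.94 to 18.8). Its difference was -3.21, and its wells held 1271 FPKM in CD8 and 199.2 in CD4.

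Of the lectin-like NK receptors, Klrd1, which encodes CD94, was detected in 73.75% of CD8 cells (62.7 to 82.96) and 12.3% of CD4 cells (5.80 to 22.1). Its difference was -5.20 and its wells held 1145 and 75.97 FPKM. Its partner Klrc1, which encodes the inhibitory chain NKG2A, differed by -4.38, and Klrk1, which encodes the activating receptor NKG2D, by -4.14. Members of the Klrc group are near-identical in sequence, as are Ly6c1 and Ly6c2, so reads could be split between copies and their single values are uncertain. Ly6c2, a marker of memory and effector CD8 cells, differed by -5.57. The survival gene Bcl2 (-3.17), the ganglioside synthase gene B4galnt1 (-3.54), the focal adhesion gene Zyx (-3.22) and Gramd3 (-2.99) were also in the group. Of these 15 genes, 6 lie on mouse chromosome 6: Cd8b1, Cd8a, Klrd1, Klrc1, Klrk1 and Zyx. That chromosome holds 4.88% of the 5016 compared genes with a position, and Klrd1 (chr6:129591782-129598775), Klrk1 (chr6:129610323-129623864) and Klrc1 (chr6:129666015-129678973) are neighbours in the NK receptor cluster of GRCm38.

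Promoter windows from RefSeq (GRCm38.p6, 250 bases before to 50 after the gene start) were found for 8 of the 15 CD8 genes and 11 of the 15 CD4 genes. They were searched on both strands for TGTGGT, the core recognised by RUNX factors, since Runx3 is a known regulator of CD8 lineage genes. The core was in the windows of 5 of the 8 CD8 genes (Nkg7, Prf1, Klrk1, Klrc1 and Ly6c2) and of 0 of the 11 CD4 genes, against 18.9% of 27025 genes with a window and 15.7% of the 4012 compared genes with one. Over all genes called in cells and wells it was in 18 of 78 CD8 genes (23.1%) and 15 of 83 CD4 genes (18.1%), so the contrast was far smaller there. Such a match is a description, not a binding site. The windows of Nkg7, the second largest difference of this group after Cd8b1, of Prf1 and of Klrk1 are shown 5′ to 3′ on the gene's strand, with the core or its reverse complement ACCACA in capitals.
Nkg7 (chr7:43436888-43437187, plus strand): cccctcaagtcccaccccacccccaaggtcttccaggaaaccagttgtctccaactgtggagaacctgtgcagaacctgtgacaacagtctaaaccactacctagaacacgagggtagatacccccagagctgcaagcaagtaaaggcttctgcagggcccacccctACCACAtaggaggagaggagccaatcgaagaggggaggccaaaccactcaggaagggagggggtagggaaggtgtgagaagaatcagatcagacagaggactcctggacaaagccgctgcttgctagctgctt
Prf1 (chr10:61297586-61297885, plus strand): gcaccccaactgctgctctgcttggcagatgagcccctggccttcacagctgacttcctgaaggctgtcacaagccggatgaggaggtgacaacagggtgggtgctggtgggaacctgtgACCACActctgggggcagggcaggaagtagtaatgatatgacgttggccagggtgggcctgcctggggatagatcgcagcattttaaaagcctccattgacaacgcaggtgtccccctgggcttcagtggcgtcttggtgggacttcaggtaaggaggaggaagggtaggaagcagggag
Klrk1 (chr6:129623815-129624114, minus strand): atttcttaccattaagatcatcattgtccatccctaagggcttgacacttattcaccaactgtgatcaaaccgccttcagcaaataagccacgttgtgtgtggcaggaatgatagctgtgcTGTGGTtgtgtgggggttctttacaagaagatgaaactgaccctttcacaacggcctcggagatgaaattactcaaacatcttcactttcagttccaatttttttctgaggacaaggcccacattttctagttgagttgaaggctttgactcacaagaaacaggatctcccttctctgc
The other motifs searched were TGTTTAC for forkhead factors, GGTGTG for T-box factors and AGATAA for GATA factors. The forkhead motif was in 0 windows of either group of 15. GGTGTG was in the windows of Capg and Il2ra among the CD4 genes and of Nkg7 among the CD8 genes, and in 20.4% of the compared genes. AGATAA was in the windows of Ccr2 and Foxp3, and over all genes called in both views in 19.3% of 83 CD4 genes and 10.3% of 78 CD8 genes, against 8.42% of the compared genes.

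The regulatory T cell programme was the gene list most shifted to CD4. Of 24 measured members, 20 were at least 2-fold higher in CD4 and 0 in CD8, with a median difference of 1.88 in cells and 2.44 in the wells. Among all 7900 genes detected in at least 10% of the cells of 1 plate, the rule for list members, the median was -0.15, with 3.28% past 2-fold towards CD4 and 7.52% towards CD8. Besides Foxp3, Tnfrsf4, Tnfrsf18, Il2ra and Capg, members past 2-fold included Ctla4, the inhibitory receptor of regulatory T cells (3.21), Areg, an epidermal growth factor family ligand (2.33), and Ikzf2, which encodes Helios (2.00). Il10, the inhibitory cytokine, differed by 1.56 in cells and 6.95 in the wells. Tgfb1 alone of the list was lower in CD4, at -0.34. A CD4 cell had a median of 9 of the 24 genes, within 2 to 20, and a CD8 cell 3, within 0 to 12.

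Receptors that tune activation were divided between the lineages. Of 16 co-stimulatory receptor genes, 7 were past 2-fold in CD4 and 2 in CD8 (median 0.87). Without the CD4 cells that had Foxp3 the median was -0.04, and in cells matched on genes detected it was 1.55. Tnfrsf9, which encodes 4-1BB, was among the former (2.69), and Cd27 (-1.97) and Cd7 (-2.52) were the latter. In the wells Cd27 lay the other way, at 0.56. Of 17 co-inhibitory receptor genes, 8 were past 2-fold in CD4 and 3 in CD8 (median 0.94). Without the CD4 cells that had Foxp3 the median was -0.10, with 0 past 2-fold in CD4 and 4 in CD8. On the WT plates it was -1.62 in cells and 0.15 in the wells. Ctla4, Klrg1 (2.09), Cd5 (1.95), Cd274, which encodes PD-L1 (1.76), and Tigit (1.36) were higher in CD4, while Klrc1 and Cd96 (-1.84) were higher in CD8. Cd160 was listed at 0 in all CD4 cells (upper limit 4.11%) and was detected in 37.5% of CD8 cells. Pdcd1, which encodes PD-1, differed by only -0.01 in cells and by -0.91 in the wells, and Havcr2 by 0.18 and -1.35. The lists overlap: 3 genes (Ctla4, Klrg1, Nt5e) are both co-inhibitory and regulatory T genes, and 3 (Tnfrsf4, Tnfrsf18, Tnfrsf1b) are co-stimulatory and regulatory T genes.

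Interferon-stimulated genes leaned towards CD4, with 16 of 31 past 2-fold and 0 past it towards CD8, a median of 1.16 in cells and 1.25 in the wells. Ly6a and Ifi27l2a led, followed by the GTPase gene Igtp (3.24), Tap1, a peptide transporter subunit (2.57), Iigp1 (2.52) and the guanylate-binding protein gene Gbp2 (2.49). Of the 21 genes of MHC class I and peptide loading, 15 were higher in CD4 (median 0.51) and 2 were past 2-fold, Tap1 and the immunoproteasome gene Psmb9 (1.54). B2m, the light chain of MHC class I, had medians of 9841 and 5832 FPKM in the cells and 24033 and 12511 FPKM in the wells. Without the 9 cells that held 3 or more macrophage, B cell or melanoma genes, the interferon median was 0.68; it was 1.43 in cells matched on genes detected.

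Immediate-early and heat shock genes had a median of 0.60, with 11 of 26 past 2-fold in CD4 and 2 in CD8. Fos, Zfp36 and Gadd45b were joined by Egr1 (1.99) and Nfkbia, an inhibitor of NF-kB (1.85), while the phosphatase gene Dusp2 (-2.10) and Fosl2 (-1.60) were higher in CD8. Fosl2 differed by 0.32 in the wells. Of 19 genes of the S100, galectin and annexin families with their companions, 6 were past 2-fold in CD4 and 1 in CD8 (median 0.77). S100a10 (2.16) and the intermediate filament gene Vim (2.03) were the largest after Capg, and Anxa2 (-1.49) went the other way. Of 14 helper lineage genes, 7 were past 2-fold in CD4 and 3 in CD8 (median 1.28). Cd4 itself is on this list, and the 3 towards CD8 were Tbx21, Stat4 and Ly6c1. Without the CD4 cells that had Foxp3 the median was 0.77, and with no filter on detection it was 0.66. Maf, a regulator of helper and regulatory cells, was detected in 52.1% of CD4 cells and 1.25% of CD8 cells, Gata3 differed by 2.18 and Rora by 2.67. Cd40lg, the helper ligand that activates antigen-presenting cells, differed by 1.90.

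**Figure D3:**
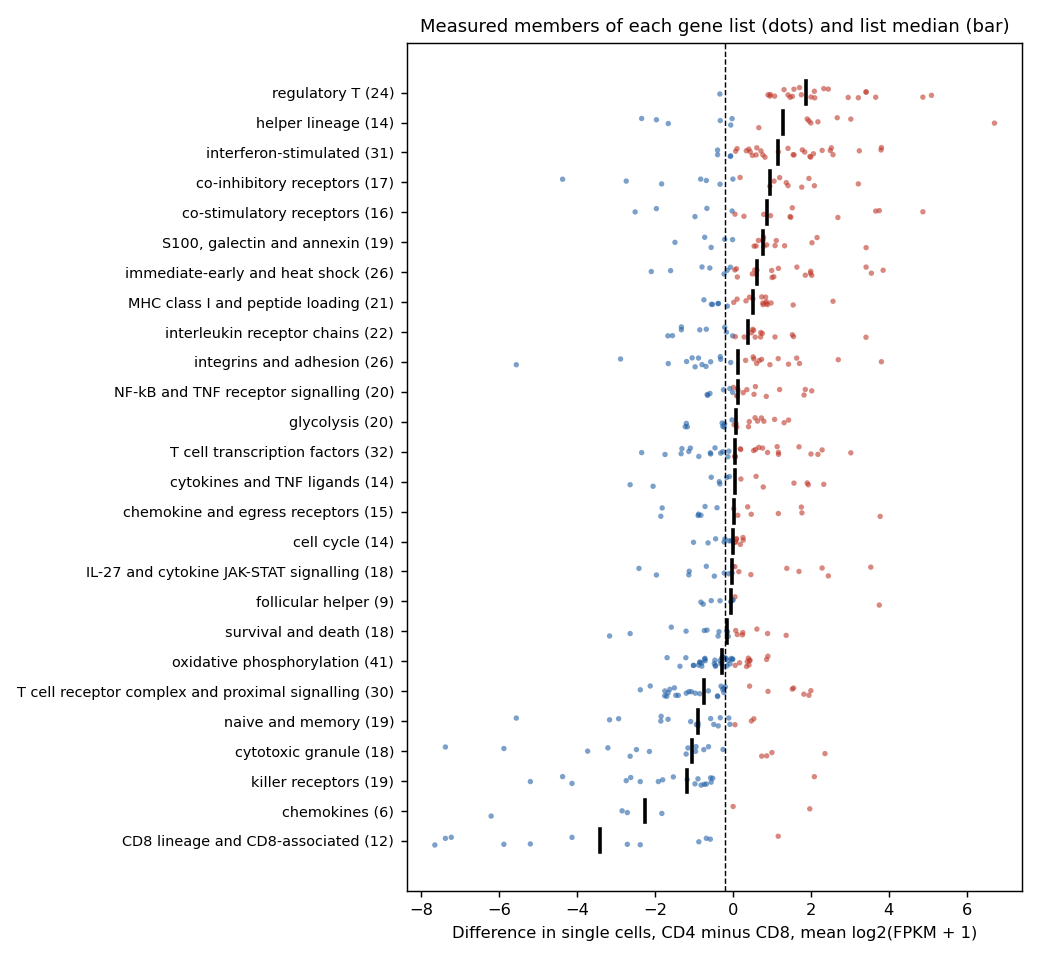
Difference between CD4 and CD8 cells (horizontal, mean log2(FPKM + 1), positive is higher in CD4) for the measured members of 26 gene lists, whose numbers stand in brackets. Dots are genes, black bars are list medians and the dashed line is the median of all compared genes, -0.21. The regulatory T list has the highest median at 1.88 and the CD8-associated list the lowest at -3.43.

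CD8-associated genes stood at the other end: 8 of 12 were past 2-fold in CD8 and 1 in CD4, with a median of -3.43 in cells and -2.98 in the wells. The exception was Itgae, which encodes the integrin CD103 (1.16). Runx3 itself differed by -0.59 in cells and -1.25 in the wells, while the killer cell adhesion receptor gene Crtam was detected in 31.25% of CD8 cells and listed at 0 in the CD4 cells and well. Eomes, a T-box factor of CD8 memory, was detected in 15% of CD8 cells and in 0 of 73 CD4 cells. Of 19 killer receptor genes, 10 were past 2-fold in CD8 and only Klrg1 in CD4 (median -1.18 in cells, -3.76 in the wells). Klrc2 (-2.63) and Klre1 (-1.92) joined those described above. The Klra (Ly49) genes are near-identical copies, and Klra7 (22.5% of CD8 cells, 0 of 73 CD4 cells) is uncertain for that reason. The median in the wells includes genes listed at 0 in the CD4 well, whose size depends on the pseudocount. This list shares 4 measured genes with the CD8-associated list.

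Cytotoxic granule genes were less uniform, with 9 of 18 past 2-fold in CD8 and 1 in CD4 (median -1.06, and -0.66 in the wells). Cst7, which encodes the protease inhibitor cystatin F, differed by -3.73 in cells but by -0.27 in the wells. Granzyme genes were not all on the CD8 side: Gzmb differed by 1.00 (just under 1 before rounding and so not called), Gzma by -0.63 and Gzmk by -1.16. Srgn, the granule proteoglycan serglycin, was higher in CD4 (2.36). All 73 CD4 cells had it, with a median of 2378 and a highest value of 9727 FPKM, as did 87.5% of CD8 cells, with a median of 836 FPKM. The death ligand gene Fasl differed by -2.64 and Ifng, the main effector cytokine of CD8 cells, by -2.05, with detection of Ifng in 8.22% of CD4 and 31.25% of CD8 cells. Of 6 measured chemokine genes 4 were past 2-fold in CD8: Ccl5, Ccl4 (-2.85), Xcl1 (-2.72) and Ccl3 (-1.83). Cxcl10, an interferon-induced attractant of T cells, was the 1 past it in CD4 (1.97), in 21.9% against 2.5% of cells. Among cytokines, Tnf was higher in CD4 (1.93).

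Genes of naive and memory T cells also lay towards CD8, with 7 of 19 past 2-fold and 0 past it towards CD4 (median -0.90 in cells and -0.86 in the wells). Tcf7, which encodes the memory factor TCF-1, had medians of 0 FPKM in CD4 and 95.3 FPKM in CD8 cells. It was detected in 23.3% and 60% of cells and differed by -2.94. Ccr7, the lymph node homing receptor, differed by -1.86 and Satb1, a chromatin organiser, by -1.85. The T cell receptor complex and its proximal signalling genes had a median of -0.75, with 13 of 30 past 2-fold in CD8 and 5 in CD4, but a median of -0.18 in the wells, where 4 and 2 were. The phosphatase genes Ptpn22 (-2.38) and Ptpn6 (-2.13) were higher in CD8 cells, and Cd6 (2.00), Cd5 and Cd247, the zeta chain (1.82), in CD4 cells. Cd3e itself differed by -0.64.

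Transcription factors, chemokine receptors and metabolism held genes past 2-fold in both directions or towards CD8 alone. Of 32 transcription factor genes, 8 were past 2-fold in CD4 and 6 in CD8 (median 0.05); Tbx21, which encodes T-bet, was higher in CD8 (-2.35). Of 15 chemokine and egress receptor genes, 4 were past 2-fold in CD4, among them Ccr4 (1.77) and Ccr8 (1.75), and 2 in CD8, Ccr7 and Cxcr6 (-1.82). Glycolysis had a median of 0.09 in cells, 0.46 in the wells, where 16 of 20 genes were higher in CD4, and 0.80 in matched cells, with Pkm (1.42) and Slc16a3, a lactate carrier gene (1.31), in CD4 and Pfkp (-1.23) in CD8. The 14 measured cell cycle genes had a median of -0.01. Oxidative phosphorylation had a median of -0.28 with 5 of 41 past 2-fold in CD8, but 0.13 in the wells and 0.28 in cells matched on genes detected, so its direction was not stable. Of all 7900 genes under the rule for list members, 7.52% were past 2-fold towards CD8, with a median of -0.15. The survival genes Bcl2l11 (-1.59) and Bcl2l1 (1.36) lay on opposite sides. Survival as a list had a median of -0.15, integrins and adhesion 0.13, NF-kB and TNF receptor signalling 0.12, interleukin receptor chains 0.38, cytokines and TNF ligands 0.05, and follicular helper genes -0.06.

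The regulatory T genes were not spread evenly over the CD4 cells, and were described by whether Foxp3 was detected. Of the 73 cells, 42 had Foxp3 and 31 did not, with medians of 2267.5 and 2123 genes detected. A missing Foxp3 value does not show that a cell is not a regulatory T cell. Compared with CD8 cells, the 42 had a regulatory T median of 2.86 and the 31 a median of 0.24. Tnfrsf4 was detected in 83.3% of CD4 cells with Foxp3, 25.8% of those without and 17.5% of CD8 cells. Il2ra was detected in 90.5%, 35.5% and 23.8% in the same order, and Ctla4 in 88.1%, 38.7% and 40%. For Ctla4 the difference from CD8 was 5.66 with Foxp3 and -0.10 without it.

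Other CD4 genes had like values with and without Foxp3, or differed in other ways. Ly6a was detected in 78.6% and 80.6% of CD4 cells with and without Foxp3 (differences from CD8 of 3.83 and 3.78), and Gata3 differed from CD8 by 2.18 in each. Zfp36 differed by 4.06 and 3.58. The S100, galectin and annexin list had medians of 0.48 and 1.14, and the interferon list 1.04 and 0.64. Cxcr6, a receptor of resident effector T cells, was detected in 19.05% of CD4 cells with Foxp3, 70.97% without it and 58.75% of CD8 cells. It was thus lower than in CD8 cells in the former (-4.01) and higher in the latter (1.15). Tcf7 was detected in 11.9%, 38.7% and 60% in the same order, and Klrk1 in 0 of 42, 41.9% and 68.75%.

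**Figure D4:**
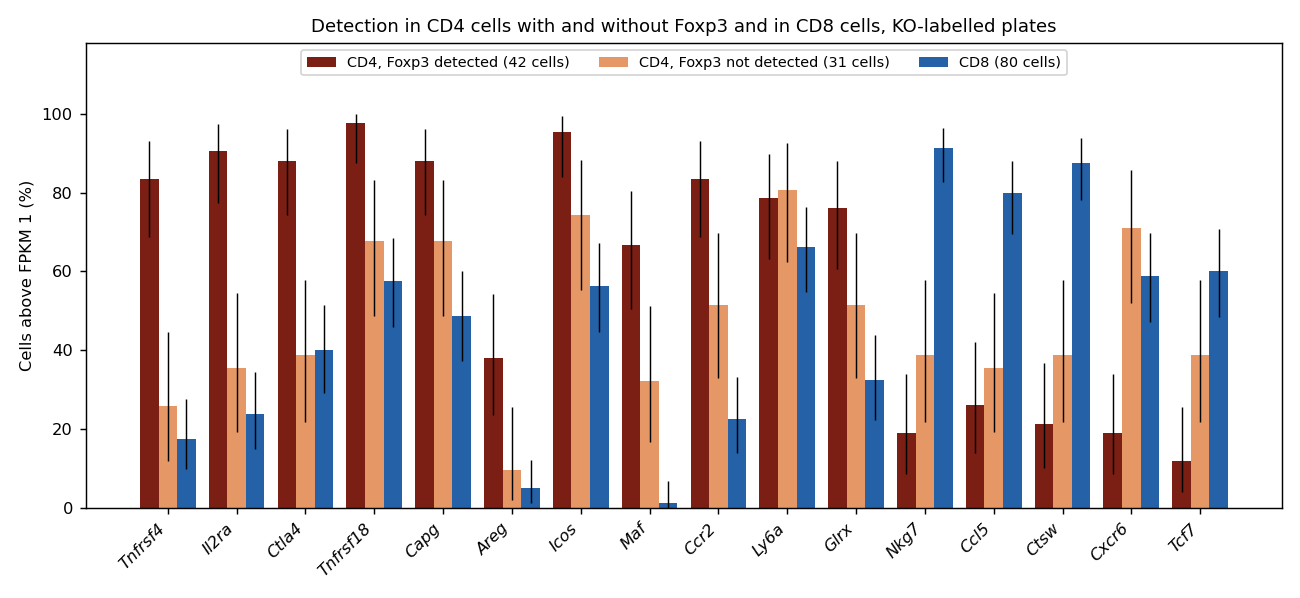
Share of cells above FPKM 1 (vertical, percent) for 16 genes in CD4 cells with Foxp3 (dark red, 42 cells), CD4 cells without it (orange, 31 cells) and CD8 cells (blue, 80 cells). Error bars are exact 95% intervals for counting error. Ctla4 and Il2ra fall to the CD8 level or near it in cells without Foxp3, Ly6a does not, and Cxcr6 is lowest in cells with Foxp3.

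Cytotoxic genes were combined in single cells in both lineages. At least 3 of Nkg7, Ctsw, Ccl5, Klrd1, Klrk1 and Prf1 were detected in 91.25% of CD8 cells (82.8 to 96.4) and 20.5% of CD4 cells (11.98 to 31.6). All 6 were found in 19 CD8 cells and in 0 of 73 CD4 cells (upper limit 4.11%). Among CD4 cells the combination was found in 4 of 42 with Foxp3 (9.52%, 2.66 to 22.6) and 11 of 31 without it (35.5%, 19.2 to 54.6). The intervals overlap, and cells of 1 plate give no test. Of the 12 CD8-associated genes, CD8 cells had a median of 7, within 2 to 10, and CD4 cells 1, within 0 to 6. CD4 cells with several of these genes and CD8 cells with few therefore overlapped.

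**Figure D5:**
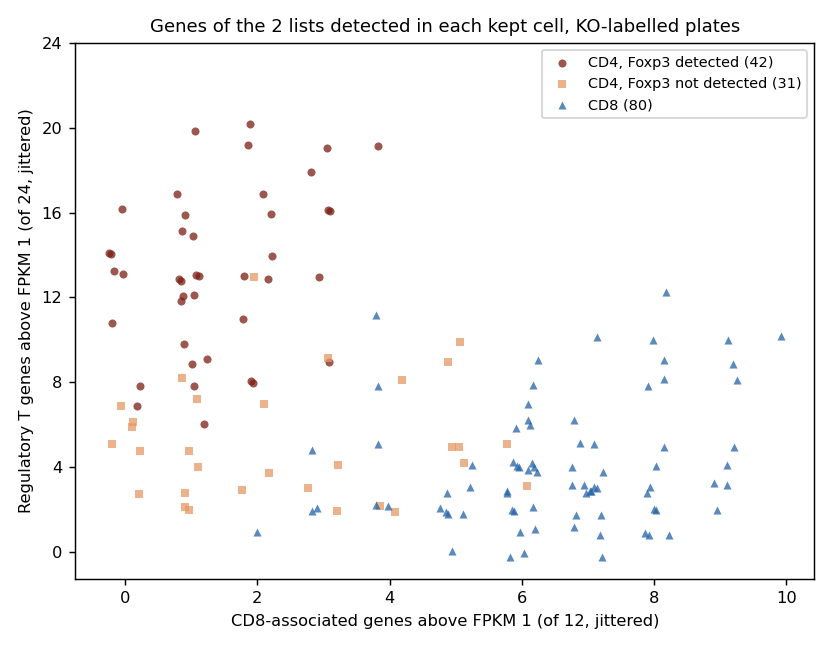
Each point is 1 kept cell, placed by how many of the 12 CD8-associated genes (horizontal) and of the 24 regulatory T genes (vertical) exceed FPKM 1, with small random shifts. CD4 cells with Foxp3 sit at the upper left and CD8 cells at the lower right, and CD4 cells without Foxp3 lie low on the left and reach 6 CD8-associated genes.

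Traces of other cell types were present in few cells. At least 3 macrophage and monocyte, B cell or melanoma genes were found in 6 CD4 and 3 CD8 cells, of which 4 and 2 also had a CD3 chain. The B cell genes Cd79a, Ms4a1 and Pax5 did not exceed FPKM 1 in any kept cell of either plate. The summed level of the macrophage and monocyte list ran from 0 to 46367 FPKM over CD4 cells and from 0 to 2668 over CD8 cells, with medians of 0, and stood at 3769 and 918 FPKM in the wells. The invariant chain gene Cd74 was detected in 26 of 73 CD4 cells, and in 21 of 67 after those cells were left out, against 2 of 77 CD8 cells. With those cells left out, its mean went from 455 to 72.3 FPKM in CD4 and from 49.2 to 1.42 FPKM in CD8. Cells were not left out for dendritic cell genes. Cxcl10 was then still found in 13 of 67 CD4 and 2 of 77 CD8 cells, and Areg in 17 of 67 and 4 of 77. Lyz2, a myeloid lysozyme gene, was found in 3 of 67 CD4 cells and its mean went from 753 to 6.95 FPKM. At least 3 of 11 dendritic cell genes, Cd74 among them, were found in 12.3% of CD4 cells (5.80 to 22.1) and 2.5% of CD8 cells (0.304 to 8.74), while Clec9a and Siglech, which mark dendritic cell subsets, did not exceed FPKM 1 in any. Of the 4 measured dendritic cell genes, only Cd74 was higher in CD4, and 3 (Ccr7, Itgax and Xcr1) were higher in CD8. Their median was -0.61 in cells and -1.77 in the wells. The summed level of the dendritic cell list had a median of 2.55 FPKM in CD4 and 15.3 FPKM in CD8 cells. No kept cell held 3 or more fibroblast and endothelial or erythroid genes. Of 8 listed gamma-delta T cell genes only 3 had values. No kept cell held all 3, which cannot show whether gamma-delta T cells were present. At least 3 of 11 NK cell genes were found in 18.75% of CD8 cells and 4.11% of CD4 cells, and these genes overlap with the killer receptors. Their summed level ran from 0 through 98.6 to 12957 FPKM in CD8 cells and from 0 through 0 to 13160 FPKM in CD4 cells, and of them Ncr1, Klrb1c, Klra4, Klra8 and Eomes did not exceed FPKM 1 in any CD4 cell. Their part in the differences was not tested. Tyr, a pigment gene, was above FPKM 1 in 100% and 97.5% of cells at means of 8.43 and 8.96 FPKM, and so it marks no cell type here.

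Some genes were detected in few cells but differed between the wells. Of those detected in under 20% of cells of both plates, the largest differences towards the CD4 well belonged to Ccl2 (681 FPKM), Ccl7 (432), Cd209a (245.2), Chi3l3 (215.1) and Wfdc17 (135.9), all listed at 0 in the CD8 well. Ccl2, Ccl7, Cd209a and Chi3l3 are known from myeloid cells, and Cd209a and Chi3l3 were detected in 0 of 73 CD4 cells. Cd209a stood in 1 CD8 cell, at 18717 FPKM. Towards the CD8 well were Gzmf (1879 FPKM, against 9.05), Gzmd (554), Gzme (290.4), Klra9 (206.6) and Il4i1 (114.4), the latter 4 listed at 0 in the CD4 well. Gzmd, Gzme and Gzmf are near-identical granzymes, and each was detected in 2 or 3 of 80 CD8 cells. A few genes went opposite ways in cells and wells. The ubiquitin ligase adaptor gene Wsb1 differed by 1.28 in cells and -1.11 in the wells, with Uap1, Egln2, Ctr9 and Crtc2 in the same pattern. Ly6c1 differed by -1.66 and 1.24, with Rnf187, Rbm6, Gm9846 and Mppe1 alike. For Ly6c1 the log of the mean FPKM over the same cells gave 1.36, the direction of the wells.

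Il27ra, the gene targeted by the label, was still detected in both plates. It ran from 0 through 0 to 536 FPKM in CD4 cells and from 0 through 40.6 to 301.3 FPKM in CD8 cells. Detection was 47.9% (36.1 to 59.96) and 61.25% (49.7 to 71.9) of cells. It differed by -0.69 and stood at 72.7 and 85.3 FPKM in the wells. The plates are therefore called KO-labelled here, and values summed over a gene cannot tell a deleted exon from the rest. Of the 18 genes of interleukin-27 and related cytokine signalling, 5 were past 2-fold in CD4 and 4 in CD8 (median -0.02). Cish, Socs2 (2.45), Stat5b (1.69) and Pim1 (1.38) were among the former, and Pim2 (-2.42), Stat4 (-1.97), Stat3 (-1.14) and the kinase gene Jak1 (-1.13) the latter.

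The same comparison on the WT plates placed most of these genes alike. Of the 15 CD4 genes, 14 were higher in WT CD4 cells, 13 of them at least 2-fold, and 15 in the WT CD4 well. The exception in cells was Glrx, at -0.51. Of the 15 CD8 genes, 14 were higher in WT CD8 cells, 13 of them at least 2-fold, and 13 in the WT CD8 well. Gramd3 was opposite in both and Bcl2 in the well (0.63). Over all called genes, 55.1% of the CD4 genes and 89.8% of the CD8 genes kept their direction in WT cells, where 16.5% and 83.5% of all compared genes lay in those directions. In the WT wells it was 82.4% and 57.7%, against 55.3% and 44.4% of all genes. The WT CD8 cells differed in make-up from the others, with 47.2% against 11.25% of KO-labelled CD8 cells carrying at least 10 cell cycle genes and a median of 3167.5 genes, and the part of this in the values was not tested.

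Of the genes called in cells and wells, 4 of the CD4 genes and 10 of the CD8 genes were reversed in both views on the WT plates. The called genes made up 2.31% (CD4) and 1.93% (CD8) of the 5286 compared genes. In WT cells 83.5% of all compared genes lay towards CD8 and 16.5% towards CD4, so the directions had unequal chances to reverse. The share of all compared genes that reversed in both views is not given, so the counts cannot be judged as few or many. Entpd1, which encodes the ectonucleotidase CD39, was higher in CD4 on the KO-labelled plates (1.20 in cells, 1.43 in the wells) and lower on the WT plates (-1.94 and -1.45). Crlf2, Ccrl2 and Cdkn1a showed the same pattern. Tcf7 was higher in CD8 on the KO-labelled plates and higher in CD4 on the WT plates (2.16 in cells, 1.24 in the wells). Ccr7 did the same (1.88 and 1.42 on the WT plates), and the other reversals in this direction included Gramd3, Sidt1 and Arl4c. The naive and memory list as a whole had a median of -0.90 on the KO-labelled plates and 0.34 on the WT plates. Whether the lineages differ by genotype here cannot be told apart from plate or animal.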

How the data were processed

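Smart-seq2 libraries of single tumour T cells and population wells were analysed from 1 table of 23420 gene symbols and 380 libraries. The deposited values are FPKM, scaled between libraries by TMM factors per the labels. The submitters' processing notes name RSEM, Bowtie and mm10, and versions are not given in the sources used here. Smart-seq2 does not mark strand, so a gene and an antisense partner cannot be told apart. The column titles gave the groups, and 304 of 376 cells were kept, 153 of them KO-labelled. From the deposited FPKM, cells with at least 1000 genes above FPKM 1 were kept, values were taken as log2(FPKM + 1), and CD8 means were subtracted from CD4 means with Python 3.11.15, numpy 2.4.6, pandas 2.3.3 and scipy 1.17.1. Genes needed detection in at least 20% of cells of 1 plate, list members 10%. No count test was run and no read depth was derived. The calculation was checked on the kept KO-labelled cells, shuffled into groups, with the FPKM of randomly picked genes multiplied by known factors. The check had to recover the direction of most genes at the largest factor, and set no requirement at 2-fold. Genes were named by rule: the 15 largest differences in each direction that were 2-fold in the wells, up to 4 per list, the largest disagreements between cells and wells, and those reversed on the WT plates. A few further list members are named after their values were seen. The members, the 35 gene lists and the rules were chosen with earlier results of these data known. Positions are from GENCODE for GRCm38, of which mm10 is the same assembly. Alternatives were 13 planned settings and 2 added after the data were seen. Some genes are not reported here.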

Additional observations from a re-analysis of the deposited data

Results flagged for a closer look

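Genes and lists appear here where the lineage difference had one sign on the KO-labelled plates and the other on the WT plates, in cells and wells alike. Each value is the CD4 minus CD8 difference in KO-labelled cells minus that in WT cells. No test of the difference was possible, because each group is 1 plate.

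Towards CD4 on the KO-labelled plates the values were 3.14 for Entpd1, 2.21 for the cytokine receptor gene Crlf2, 1.60 for the chemerin receptor gene Ccrl2 and 1.57 for the cell cycle inhibitor gene Cdkn1a. Towards CD8 they were -5.10 for Tcf7, -3.88 for Gramd3, -3.74 for Ccr7, -3.40 for Sidt1 and -2.46 for Arl4c. By list, the medians that met this in cells and wells moved by 1.61 for S100, galectin and annexin genes, by -1.23 for naive and memory genes and by -0.42 for follicular helper genes. Tcf7 and Ccr7 belong to the naive and memory list, so the gene and list values are not independent. Other list medians, such as those of the co-inhibitory receptors (0.94 on the KO-labelled and -1.62 on the WT plates) and of MHC class I (0.51 and -0.37), changed sign in cells but not in the wells. The median of all compared genes was -0.21 in KO-labelled and -0.73 in WT cells, a shift of the same order in size as the smallest of these values. That shift is towards CD4, so it has the direction of the positive values above and is opposite to the negative ones, the follicular helper value (-0.42) among them.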

How the results depend on the processing

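No paired analysis was possible because each group is 1 plate, no test was run and the cells' numbers are in accession order. With a single plate and well a group, leaving out a replicate was not possible either.

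The share of compared genes past 2-fold depended on the setting. In CD4 it was 4.63% as reported, 7.91% with a pseudocount of 0.1, 1.87% with 10, 7.09% in cells with at least 2000 genes, 10.8% in cells matched on genes detected, 7.93% from the log of the mean FPKM and 7.02% after centring. In CD8 it was 11.1%, and 22.9%, 2.63% and 6.81% with pseudocounts of 0.1 and 10 and after centring. For genes past it in cells and wells, the CD4 share of 2.31% became 1.42% with a pseudocount of 10 and 1.38% without Foxp3-detected CD4 cells. The CD8 share of 1.93% became 3.08% and 0.795% with pseudocounts of 0.1 and 10. With no filter on detection the 4 shares were 1.94%, 4.44%, 0.994% and 0.792%, since 13380 genes were then compared.

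List medians kept their sign in most settings, but not their size. Of the 7 lists with a median past 2-fold, 2 stayed past it without Foxp3-detected CD4 cells. The number was 3 with a pseudocount of 10, 2 with no filter on detection and 5 or more in the other settings. Without Foxp3-detected CD4 cells the cytotoxic granule and killer receptor medians were -0.99 and -0.97. The CD8-associated median was -4.83 and -2.08 with pseudocounts of 0.1 and 10 and -2.46 without Foxp3-detected cells. The regulatory T median was 2.53 and 1.13 with those pseudocounts, 3.33 from the log of the mean FPKM and 0.24 without Foxp3-detected cells. Killer receptors had -1.81 with detection above FPKM 10 and -4.92 from the log of the mean. With no filter on detection the chemokine median was 0.0008, since genes near 0 then enter. Without Foxp3-detected CD4 cells the co-inhibitory and co-stimulatory medians changed sign, to -0.10 and -0.04. Of the named genes past 2-fold, 6 changed sign. Without Foxp3-detected CD4 cells they were Ctla4 (-0.10), Foxp3 (-0.13, by construction), Itgae (-0.44) and Cxcr6 (1.15). Ly6c1 reached 1.36 from the log of the mean FPKM, and Pgam1 reached 0.36 in matched cells and 0.23 from that log; the cause was not tested. A larger number of the named genes kept their sign but fell short of 2-fold in some settings, so many of these calls depend on the setting. The loss was largest without Foxp3-detected CD4 cells. Next came a pseudocount of 10, then the log of the mean FPKM, then matched cells. Examples without Foxp3-detected CD4 cells were Areg (0.49), Klrg1 (0.46) and Entpd1 (0.26). The 30 genes at the 2 ends kept their direction and a 2-fold size in all settings except Foxp3, Il2ra (0.75) and Ifi27l2a (0.74) without Foxp3-detected cells.

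Detection limits the rest: a share of 0 in 73 or 80 cells allows up to 4.11% or 3.75% (3 cells of the total), and genes absent from a cell may have been missed.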
